A study of Mus with 2 samples.

Results

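The 9 genes described here encode Irf4, Egr2, Klf4, Klf2, Myc, Kdm6b, Bhlhe40, Maf and Spi1, which are known to act in alternative (M2) activation or in the identity of macrophages. They were chosen by name for that role, and although no measured value enters the rule, earlier results of these data were known when the list was made. A non-control probe whose transcript accession maps to the symbol was found for all 9, out of 20144 genes with such a probe. Of those genes, 13533 were measured, that is, well above background on at least 1 array by the mark of the scanner software.

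The RNA came from BMDMs, macrophages grown from the bone marrow of male C57BL6/J mice, 10 weeks old, over 7 d with 10 ng/mL of M-CSF. All cells were under M2 conditions, with 10 ng/mL of IL-4 for 24 hr, and received during that time either 10 μM GW4064, a synthetic agonist of the nuclear receptor FXR, or its solvent DMSO. Total RNA of each condition was hybridised to 1 Agilent 1-colour array, so that there is no replicate and no test for any gene. An untreated or M1 culture was not analysed here, and whether each condition pooled several mice is not given in the sources used here.

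IL-4 acts through the receptor-activated factor STAT6, which switches on genes of M2 cells together with a layer of further transcription factors. Among these, IRF4, EGR2, KLF4 and MYC are known as factors induced by IL-4, and the demethylase KDM6B (JMJD3) removes the silencing mark on lysine 27 of histone H3 and is known to act upstream of IRF4. PU.1, the product of Spi1, opens macrophage enhancers on which signal-dependent factors then bind. KLF2 is known to restrain inflammatory activation, c-MAF to drive Il10, and BHLHE40 to repress Il10 and to take part in macrophage proliferation.

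Signals are given as the intensity of the spot after background subtraction within the array, with the error that the scanner software estimated for that spot. Differences are on the log2 scale, GW4064 minus DMSO, after scaling both arrays to a common 75th percentile, which lay at an intensity of 1209 (DMSO) and 1265 (GW4064). They are thus relative to the bulk of genes. When the arrays were aligned on 8 spike-in probes instead, every difference was lower by 0.19 and the median of probes above background moved to -0.18, so that any value given here between 0 and 0.19 turns negative on that scale. None of the 9 regulators differed 2-fold between the arrays. The counts were 0 higher and 0 lower, where 2.04% of all measured genes reached this size upwards and 2.71% downwards. At 1.5-fold they were again 0 and 0, against 4.39% higher and 5.56% lower. On the spike-in scale Irf4 alone passed 1.5-fold.

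Dim genes scatter more, and the regulators were not dim. Among the 7205 genes at least as bright as Kdm6b, the dimmest of the 9, the share was 0.458% higher and 0.236% lower at 2-fold, and 1.32% and 1.01% at 1.5-fold. With shares this low, 0 of 9 is close to this background and sets the regulators apart from no other group. Their median log2 difference was -0.021, with a median size of 0.047, against 0.011 and 0.095 among the bright genes. Irf4 (-0.48), Bhlhe40 (0.36) and Kdm6b (-0.21) differed by more than the software's error of 0.20, and Irf4 alone by more than 2 such errors. Egr2 was at -0.11, and the other 5 lay between -0.047 and 0.0075.

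Each regulator was read by 1 probe at 1 spot on each array. Each was well above background on both arrays, and none of these spots was saturated or marked as uneven. The error can be judged from other probes in the same signal range. Among 144 probes printed several times there, the SD of the log2 difference over the copies had a median of 0.071 and a 95th percentile of 0.13. Among 961 genes read by 2 different probes in that range, the probes differed from each other by a median of 0.082 in this quantity. The software's own spot errors, carried into the difference, gave 0.20 for each regulator. All of these describe the slide and the probes, and the spread between cultures or mice was not measured.

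**Figure D1:**
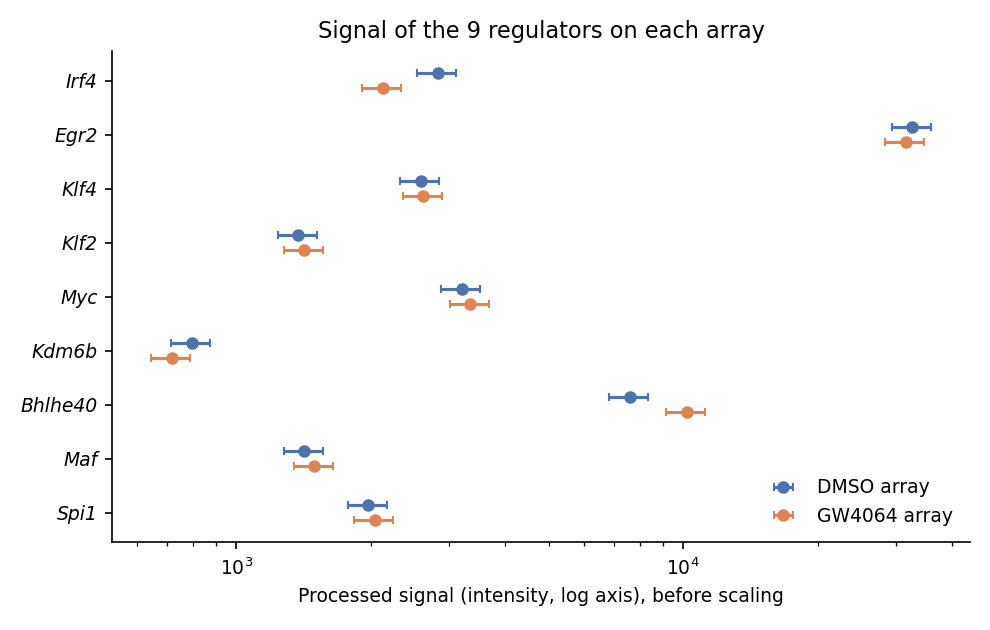
Processed signal of each of the 9 regulators (horizontal, intensity on a log axis, before scaling between arrays) with DMSO and with GW4064, with the scanner software's error of the spot as bars. The bars of both arrays overlap for every gene except Irf4 (2826 and 2125) and Bhlhe40 (7597 and 10180).

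Irf4, an interferon regulatory factor that IL-4 induces and that drives many M2 genes, had the lowest value of the 9. Its signal was 2826 ± 283 (software error) with DMSO and 2125 ± 213 with GW4064, and these ranges do not overlap. The log2 difference was -0.48 ± 0.20, or 1.39-fold lower with GW4064, which is 6.73 times the median SD over copies. Of all measured genes, 7.01% were lower by as much or more, and 1.83% of the bright genes were.

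The Irf4 spot lay in an area of the slide where other spots differed 8-fold or more, with 4 such spots within 300 µm. All 4 were brighter on the GW4064 array, with signals there between 55.3 and 226, while Irf4 itself was dimmer on that array. The 20 bright spots within the same distance had a median log2 difference of 0.044, between -0.64 and 0.31, and 1 of them was lower by as much as Irf4. The part of this area in the value of Irf4 was not tested, and because the gene had no other named probe, it has no value once such areas are left out.

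The relatives of Irf4 did not share its direction as a group. Of 8 other genes of the IRF family, all measured, 5 were higher and 3 lower (2 and 6 on the spike-in scale), and 0 passed 1.5-fold in either direction. Irf8, the closest relative of Irf4 and a partner of PU.1 in macrophages, was at 0.20, from signals of 11340 and 13660. Irf5, known for inflammatory activation, was at 0.16, turning to -0.027 on the spike-in scale.

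Bhlhe40 had the highest value of the 9. Its signal was 7597 ± 760 with DMSO and 10180 ± 1020 with GW4064. The log2 difference was 0.36 ± 0.20, or 1.28-fold higher, which is 5.03 times the median SD over copies and within 2 software errors. Of the bright genes, 3.62% were higher by as much or more, and of all measured genes 8.60%. The 14 bright spots within 300 µm had a median of -0.011 and 0 of them were as high as Bhlhe40. Its only close relative, Bhlhe41, was at -0.32 as the mean of 2 probes (-0.40 and -0.25), with signals from 89.0 to 140.5, and the pair pointed in opposite directions under each of the settings tried.

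Kdm6b, the demethylase named above, was at 794.1 ± 79.5 with DMSO and 716.5 ± 71.7 with GW4064. Its log2 difference was -0.21 ± 0.20, or 1.16-fold lower. Of the bright genes, 8.17% were lower by as much or more, and the neighbouring bright spots within 300 µm ranged from -0.37 to 0.38. Kdm6a, which removes the same mark, was at 0.0058. Of the 11 other genes of histone H3 lysine 27 methylation, all measured, 7 were higher and 4 lower (1 and 10 on the spike-in scale), and 0 passed 1.5-fold. Ezh2, the methyltransferase that writes the mark, was at 0.17 and its relative Ezh1 at -0.18 over 3 probes.

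**Figure D2:**
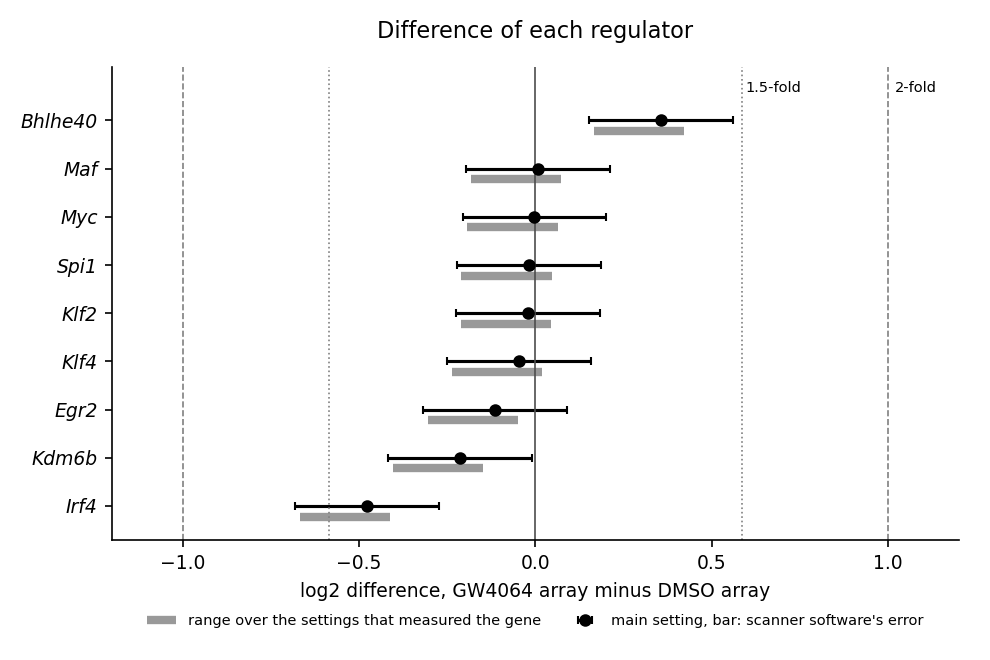
The log2 difference of each regulator (horizontal, GW4064 array minus DMSO array) in order of size, with the error from the scanner software as a black bar and the range over the processing settings as a grey bar. Irf4 (-0.48) and Bhlhe40 (0.36) lie at the ends, Kdm6b and Egr2 follow, and the other 5 lie between -0.047 and 0.0075. Of these 5 only Maf is above 0, and it turns to -0.18 on the spike-in scale. The dotted and dashed lines mark 1.5-fold and 2-fold.

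Egr2, a zinc finger factor known as a mark of M2 macrophages, had signals of 32600 ± 3260 and 31530 ± 3150. The log2 difference was -0.11 ± 0.20, and 19.0% of the bright genes were lower by as much or more. Egr1, an immediate early relative, was at 0.33, from 963.8 to 1266. Egr3 and Egr4 were not well above background on either array. The corepressors that bind EGR proteins were at 0.051 for Nab1 and -0.077 for Nab2.

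The Krüppel-like factors Klf4 and Klf2 gave almost the same signal on both arrays. Klf4, a cofactor of STAT6 in M2 cells, was at 2586 ± 259 with DMSO and 2620 ± 262 with GW4064, a log2 difference of -0.047. Klf2 was at 1375 ± 138 and 1418 ± 142, a difference of -0.021. Both values are below the median SD over copies and change sign without scaling between the arrays.

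The wider KLF family was more varied. Of 15 other genes, 13 were measured, with 5 higher and 8 lower and a median of -0.12. The genes past 1.5-fold were Klf1, Klf17 and Klf5, and each was well above background on 1 array only. Klf1, an erythroid factor, was at least 3.75-fold lower, from an intensity of 54.2 with DMSO. Klf17 was at least 1.92-fold higher and Klf5 at least 1.52-fold higher, reaching 32.0 and 25.1 with GW4064. After a normexp background correction Klf1 was at -0.65, while Klf17 (0.037) and Klf5 (0.27) no longer passed 1.5-fold. The 3 spots had 6, 6 and 2 spots differing 8-fold or more within 300 µm, and the part of these areas was not tested. Among the brighter members, chosen after their values were seen, Klf3 was at 0.51 and Klf13 at -0.42. Klf3 had 2 spots differing 8-fold or more within 300 µm and has no value once such areas are left out. The dimmer Klf8 was at -0.52, from signals of 564.4 and 413.1.

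Myc, the growth and ribosome factor that IL-4 is known to induce in macrophages, had signals of 3198 ± 320 and 3340 ± 334. After scaling its log2 difference was -0.0027, the smallest of the 9. Its partner Max was at -0.074 and the repressor Mnt at -0.0004, while Mycn and Mycl were not well above background on either array. Of 12 other genes of the MYC and MAX network, 9 were measured, 3 of them higher and 6 lower. The gene past 1.5-fold was Mlxipl, which encodes the glucose-responsive factor ChREBP. It was 2.39-fold higher, from signals of 32.8 and 82.1 at 1 spot, and had a log2 difference of 0.28 after a normexp background correction.

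Maf and Spi1 were likewise level. Maf was at 1419 ± 142 and 1493 ± 149, a log2 difference of 0.0075. Of the 6 others in the MAF family 5 were measured, 3 higher and 2 lower (0 and 5 on the spike-in scale), and 0 passed 1.5-fold. Spi1 was at 1975 ± 198 and 2040 ± 204, a difference of -0.019. Its relative Spib did not pass the background mark with DMSO or with GW4064, and Spic was at -0.15 with signals of 43.7 and 41.3. Of 18 other ETS factors, 16 were measured, with 7 higher, 9 lower and 0 past 1.5-fold.

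**Figure D3:**
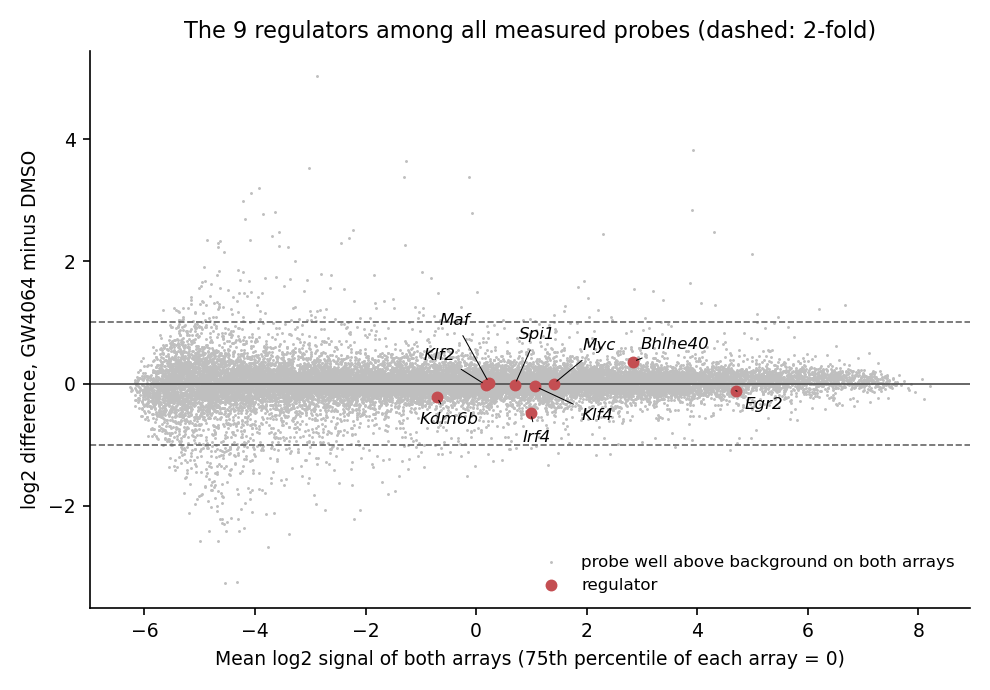
Each point is a probe well above background on both arrays, placed by its mean log2 signal (horizontal, 75th percentile of each array set to 0) and its log2 difference (vertical, GW4064 minus DMSO), with the 9 regulators in red and 2-fold as dashed lines. The regulators lie in the brighter part of the plot, where the cloud is narrow, and all are inside the dashed lines.

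A list of 42 other factors of macrophage identity or activation was compared in the same way, and 40 were measured. Of these, 16 were higher and 24 lower, with a median of -0.084. At 1.5-fold, 2 were higher and 2 lower, and 0 reached 2-fold in either direction. Tfeb, a factor of lysosome genes, was 1.99-fold lower, from signals of 1386 and 727.5 at 1 spot with no 8-fold spot nearby. Nr4a1, an orphan nuclear receptor, was at -0.81, from 439.3 and 262.4, with 4 spots differing 8-fold or more within 300 µm. Runx3 was at 0.92 over 2 dim probes, and at 0.39 after the normexp correction. Epas1, which encodes HIF-2α, was at 0.70 over 3 probes that disagreed (0.96, 0.96 and 0.16).

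STAT6 itself is the reference point for these factors. Its gene was at -0.010 over 3 probes, between -0.071 and 0.073. Pparg, a nuclear receptor of M2 cells whose probe was printed 10 times, was at -0.30 with an SD of 0.063 over the copies. The C/EBP genes Cebpa and Cebpb were at -0.44 and 0.11, and Cebpa had 4 spots differing 8-fold or more within 300 µm.

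Genes known to respond to these factors were also listed. Of 18 measured PU.1 targets, 11 were higher and 7 lower (1 and 17 on the spike-in scale), 0 passed 1.5-fold, and the median was 0.059. Its brightest members were Tyrobp at -0.0075, Ctss at -0.23, Fcer1g at -0.045 and Csf2ra at 0.11.

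Of 23 measured MYC targets, 21 were higher and 2 lower, with a median of 0.20 and 0 past 1.5-fold. Among all bright genes 53.5% were higher, with a median of 0.011. On the spike-in scale 12 of the 23 targets were higher and their median was 0.011. The brightest were Ldha at 0.081, Npm1 at 0.056, Hspd1 at 0.20 and Mybbp1a at 0.052. Of 11 measured cell cycle genes, 9 were higher, with a median of 0.16 that turned to -0.035 on the spike-in scale. The brightest of them were Pcna at -0.065, Mcm3 at 0.15, Mcm5 at 0.18 and Mki67 at 0.13.

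Of 5 measured genes linked to MAF, 2 were higher and 3 lower. The complement genes were at 0.13 for C1qa, -0.055 for C1qb and 0.14 for C1qc, and Csf1r, the M-CSF receptor, was at -0.24 over 3 probes, 1 of them with 11 spots differing 8-fold or more nearby. The gene past 2-fold was Il10, named after its value was seen. Its mean intensity was 45.6 with DMSO and 16.8 with GW4064, where it did not stand well above background. The bound averages log2 signals over the copies, so it is not the ratio of these mean intensities, which is smaller. On that basis Il10 was at least 3.03-fold lower, a log2 difference of -1.60 or below. It was at -0.50 after the normexp correction. The SD of the difference over its 7 copies kept on both arrays was 0.48. Up to 3 spots differing 8-fold or more lay within 300 µm of a copy. Among genes known as KLF2 targets, Thbd was at -0.051, S1pr1 at -0.40 and Nos3 at 0.35.

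The IL-4 response genes, by contrast with the regulators, spanned several fold, but this list too was chosen with earlier results of these data known. Of 17 measured genes, 13 were higher and 4 lower, with a median of 0.42 (0.23 on the spike-in scale). At 1.5-fold, 7 were higher and 0 lower, where 4.39% of all measured genes were higher and 5.56% lower. Among the bright genes the shares were 1.32% and 1.01%. Of the 7, Ccl22 was well above background with GW4064 only (17.2 and 35.3) and Ccl17 was dim (197.7 and 313.6). After the normexp correction they were at 0.28 and 0.36, short of 1.5-fold. Ccl22 also had 3 spots differing 8-fold or more within 300 µm. At 2-fold, 2 of the 17 were higher, where 2.04% of all measured genes were. The brightest by the mean of both arrays were Chil3 at 0.066, Mgl2 at 0.99, Retnla at 0.91 and Tgm2 at 2.30 over 2 probes, the last through its signal with GW4064 (14200 with DMSO, 71170 with GW4064). Arg1, the arginase of M2 cells and the other gene past 2-fold, was at 3.82. The 4 lower genes were Socs1 at -0.53, Pdcd1lg2 at -0.41, the mannose receptor gene Mrc1 at -0.34 and Cish at -0.14, and Socs1 had 13 spots differing 8-fold or more within 300 µm. The difference between this list and the regulators was not tested.

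**Figure D4:**
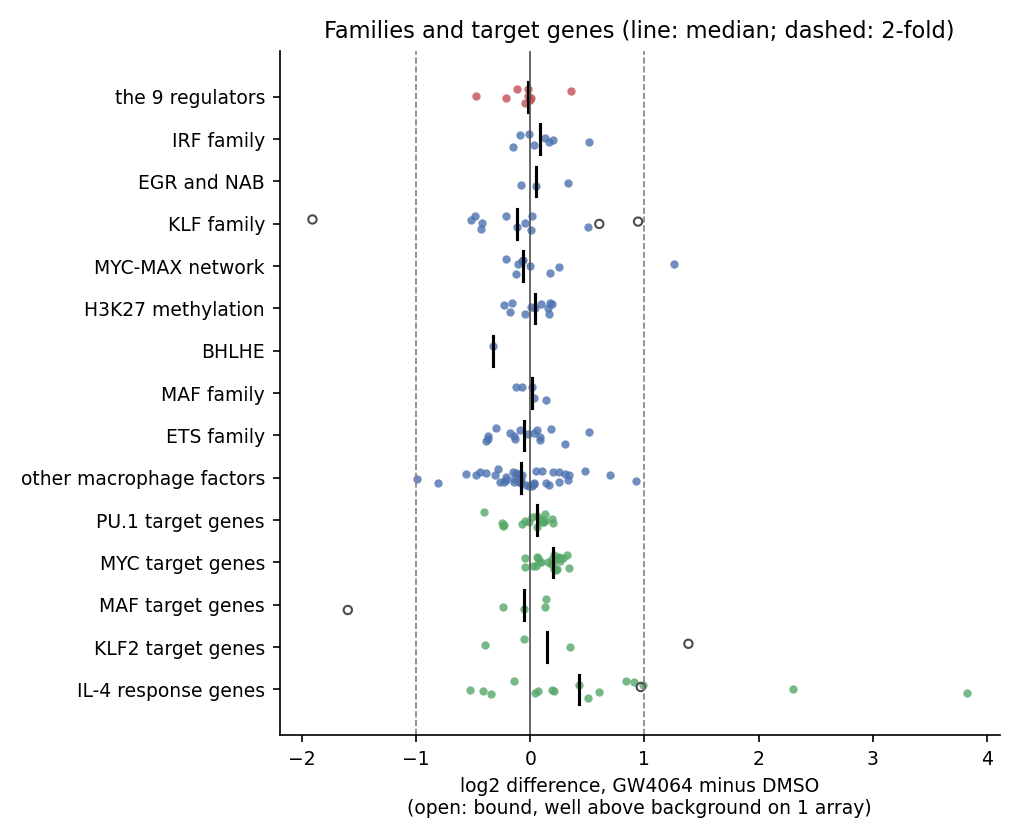
The log2 difference (horizontal, GW4064 minus DMSO) of each measured gene, by list, with the median of each list as a black line and 2-fold as dashed lines; the 9 regulators are in red, family relatives and other factors in blue, target genes in green, and open circles are bounds from genes well above background on 1 array. The regulators lie between -0.48 and 0.36, the 66 measured relatives mostly within 1.5-fold, and the IL-4 response genes reach 3.82.

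Cell type markers were read beside these values, since in RNA from a whole culture fewer cells of a type and less RNA per cell cannot be told apart. The macrophage label was checked against its markers. All 9 markers with a matched probe were measured, between -0.34 and 0.13 (all below 0 on the spike-in scale), and their summed signal was 201000 with DMSO and 191900 with GW4064. Stromal markers were lower for 10 of 11 measured genes, with a summed signal of 29530 and 16440, and neutrophil markers for 7 of 8, with 13910 and 9024. Of the dendritic cell markers, 4 of 7 were measured, 2 higher and 2 lower, and Cd209a, Xcr1 and Clec9a were not well above background. Zbtb46 was at 0.44 and Ccr7 at -0.60, and at 0.097 and -0.087 after the normexp correction. Siglech was at -0.041. Flt3, the receptor on dendritic cell precursors, was at least 4.94-fold higher at 1 probe, reaching 81.5 with GW4064, with 3 spots differing 8-fold or more nearby. Its difference was 0.72 after the normexp correction, and its other probe did not pass the background mark with DMSO or with GW4064.

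IRF4 is also known in B and T cells. The B cell markers Cd79a and Pax5 and the T cell markers Cd3d and Cd3g were not well above background on either array, while Cd79b (281.9 and 236.4), Cd3e (209.0 and 248.5) and Lck (163.5 and 172.0) were on both. The 5 B cell markers summed to 340.9 and 257.1. Ms4a1, which encodes CD20, was at least 2.47-fold lower, from 35.8 with DMSO, and at -0.57 after the normexp correction. The T cell markers summed to 380.9 and 429.2. None of the 4 mast cell or basophil markers was measured. The part of any of these other cell types in the values of the regulators was not tested.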

How the data were processed

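BMDMs under M2 conditions with DMSO or GW4064 were measured on 1 array each. The authors deposited the intensity of each spot from Agilent Feature Extraction 10.7.1.1 (per the submitters' processing notes), background-subtracted and detrended within the array, with the software's error estimate, and the median spot and background intensity. They also deposited a log2 table, whose scaling is not given in the sources used here and which served as an alternative.

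The log2 of the processed signal was shifted to each array's 75th percentile (43020 spots on each array, both arrays on 1 slide). Uneven spots and outliers among copies were left out, copies of a probe were averaged, and the probes of a gene that passed the background mark on either array were averaged in turn. A probe well above background on 1 array only gives a bound against the lowest such signal (15.7 for DMSO, 15.1 for GW4064). Symbols came from RefSeq transcripts of GRCm38.p6, matched without versions for 26581 of 39429 probes. Coordinates are left out, since the array was designed on mm9.

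The members and 22 gene lists were chosen with earlier results of these data known. Named were all members, relatives and other factors past 1.5-fold (up to 6 per list), close relatives and the up to 4 brightest targets; further names are examples chosen later. The treatment label of the GW4064 sample was followed, although its free-text description repeats the DMSO wording. Some items are not reported here. No test was possible with 1 array per condition. The scripts were tested on simulated data. Software was limma 3.58.1 in R 4.3.3, and Python 3.11.15 with pandas 2.3.3, numpy 2.4.6, statsmodels 0.14.6, scipy 1.17.1 and matplotlib 3.10.9.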

Additional observations from a re-analysis of the deposited data

How the results depend on the processing

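No paired analysis was possible because a lone array stands for each treatment. The counts of regulators 2-fold or more higher (0) and lower (0) were also 0 under all 12 alternatives of scaling, background correction, filtering and probe choice, and at thresholds of 1.5-fold and 4-fold. With spike-in centring Irf4 stood at -0.67, past 1.5-fold, Kdm6b at -0.40, Egr2 at -0.30 and Bhlhe40 at 0.17, with distances between the genes as before. It also changed the 2-fold calls over all genes from 276 higher and 367 lower (42.9% higher) to 211 and 522 (28.8% higher). Irf4, Egr2, Kdm6b and Bhlhe40 kept their direction in each setting that measured them, while Klf4, Klf2, Myc, Maf and Spi1, all within 0.1 of 0, changed sign in 1 to 5 settings. Irf4 had no value without the damaged areas (2 or more spots differing 8-fold within 300 µm). The normexp correction left 72 genes higher and 64 lower at 2-fold, without a filter on dim probes 698 and 767 were counted, and with bounds dropped 107 and 164. Without the damaged areas the counts were 168 and 202, and with the deposited log2 values (no bounds) 495 and 495. With 1 array per condition, the spread between cultures sets a limit that was not measured.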
